A study of Mus musculus with 8 samples.

Results

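The 10 genes Gata4, Nkx2-5, Tbx5, Tbx20, Mef2a, Mef2c, Mef2d, Hand2, Srf and Myocd encode core transcription factors of the cardiomyocyte. They were taken by gene symbol from the 56748 genes of the deposited table, each matched 1 row, and all 10 were among the 16002 genes with enough counts to be tested. Their levels were measured by RNA sequencing of whole hearts of C56BL mice (the strain as the labels spell it) aged 3 to 4 months. The 4 CRE hearts carried the aMHC Cre transgene as controls, and the 4 CS7KO hearts carried the same Cre and were labelled as knocked out in cardiomyocytes for Smad7, an inhibitor of TGF-beta signalling. The promoter of alpha myosin heavy chain drives the Cre, so that deletion was directed to cardiomyocytes while whole-heart RNA also came from all other cells. Both groups had undergone transverse aortic constriction, a band on the aorta that raises the pressure load, for 56 days, and no unbanded heart entered the comparison. Animals were kept if the ratio of flow in the right over the left carotid artery was from 3 to 25, per the labels' protocols. Each genotype had 2 male and 2 female hearts.

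These factors bind DNA next to each other at enhancers and promoters of heart genes and activate them in combination. GATA4 is a zinc finger protein, NKX2-5 a homeodomain protein, TBX5 and TBX20 are T-box proteins and HAND2 is a basic helix-loop-helix protein; together they pattern the embryonic heart and keep adult cardiomyocyte genes active. The MEF2 proteins and SRF share the MADS-box fold, and myocardin, the product of Myocd, does not bind DNA itself but is carried to it by SRF. In hearts under pressure load GATA4, MEF2 and SRF are known as mediators of the hypertrophic gene programme.

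Promoter letters were available from RefSeq, build GRCm38.p6, for 7 of the 10 members, as 9 windows from 250 bases before to 50 bases after a gene's start. Gata4, Tbx5 and Myocd were not among them. Both strands were searched for the CArG box bound by SRF, for a MEF2 motif, for AGATAA of GATA factors, for AAGTG of NKX factors, for AGGTGT of T-box factors and for the E-box CANNTG of helix-loop-helix factors. The 3 windows below are shown because they hold the motifs of SRF, GATA and MEF2, factors central to the results, given in capitals; AAGTG and E-box matches were left in lower case.

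Srf, chr17:46556113-46556412, minus strand: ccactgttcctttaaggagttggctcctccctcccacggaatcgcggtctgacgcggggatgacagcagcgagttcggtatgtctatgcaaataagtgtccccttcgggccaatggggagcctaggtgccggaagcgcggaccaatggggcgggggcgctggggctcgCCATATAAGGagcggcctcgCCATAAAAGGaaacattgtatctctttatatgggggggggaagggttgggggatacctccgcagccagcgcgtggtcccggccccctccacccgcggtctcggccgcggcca

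Hand2, chr8:57320733-57321032, plus strand: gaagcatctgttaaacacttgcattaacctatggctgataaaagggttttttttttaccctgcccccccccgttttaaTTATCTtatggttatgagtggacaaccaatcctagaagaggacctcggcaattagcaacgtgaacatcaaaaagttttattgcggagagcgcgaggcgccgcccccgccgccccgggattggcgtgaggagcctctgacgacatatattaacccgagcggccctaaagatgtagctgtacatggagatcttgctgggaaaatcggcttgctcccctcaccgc

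Mef2a, chr7:67372809-67373108, minus strand: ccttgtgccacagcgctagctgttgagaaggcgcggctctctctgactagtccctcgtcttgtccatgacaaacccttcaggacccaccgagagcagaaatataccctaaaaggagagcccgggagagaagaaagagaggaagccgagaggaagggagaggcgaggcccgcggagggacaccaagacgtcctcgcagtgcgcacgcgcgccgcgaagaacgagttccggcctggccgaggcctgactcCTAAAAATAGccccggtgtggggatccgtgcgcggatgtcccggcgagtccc

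The Srf promoter held 2 CArG boxes, the element that SRF itself binds, at bases 169 to 178 and 189 to 198 of the window. A CArG box occurred in 1.63% of the 32851 mouse promoters of the same length, and Srf was the 1 member of 7 that had one. The Hand2 window held the GATA motif on the minus strand at bases 79 to 84, a motif found in 11.2% of promoters, and the Mef2a window held the MEF2 motif at bases 249 to 258, found in 3.19%. AAGTG was present in the windows of Hand2, Mef2c and Srf and the E-box in those of Hand2, Mef2c and Nkx2-5; 46.4% and 72.3% of all promoters held them. In Hand2 and Mef2c some of these AAGTG and E-box matches overlapped. The T-box motif was found in 1 of the 3 windows of Mef2c and in 13.7% of all promoters. A match describes letters and is not evidence of binding.

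Libraries held between 16476420 and 40181492 counts, and the upper limit for a gene with no counts (3 counts) was 0.0643 to 0.363 CPM (TMM-scaled counts-per-million). The share of counts from the mitochondrial genome was 15%, 20.3%, 41.1% and 69.8% in the CRE libraries numbered 1, 2, 3 and 5; in CS7KO hearts it lay between 20.2% and 24.9%. CRE 3 and CRE 5 were the female CRE hearts. In CRE 1, 537 genes had between 1 and 9 counts, against 5848 to 19697 in the other libraries. Genes in the shortest 20% by length, up to 2153 bases, lay a median of 0.53 log2 units above their mean over libraries in CRE 1, and those in the longest 20% lay 0.62 below it (-0.62). Ventricular cardiomyocyte markers summed to 49886, 35584, 28598 and 21961 CPM in the CRE libraries, in the same order, and to between 42773 and 51536 CPM in CS7KO hearts. Endothelial markers summed to 2580, 1638, 5264 and 4951 CPM in CRE hearts and to 2199, 954, 1661 and 781 CPM in CS7KO hearts. The tissue is labelled as whole heart. Of the 8 atrial markers, Myl7 (0.242 to 1.34 CPM), Sln (0 to 0.322 CPM) and Bmp10 (0 to 0.744 CPM) were near 0, and Myl4 had 1.77 to 6.85 CPM. The other 4, which are less restricted to atria, were Kcna5 with 13.3 to 46.3, Dkk3 with 9.07 to 44.2, Stard10 with 6.62 to 24.5 and Nppa with 113 to 2717 CPM. Nppa made up most of the atrial sum, which was 183 to 1882 CPM in CRE and 2087 to 2777 CPM in CS7KO hearts. Smad7 had 17.6, 25.5, 25.2 and 45.4 CPM in CRE hearts and 19.8, 13.3, 27.8 and 12.3 CPM in CS7KO hearts, overlapping ranges with a log2 difference of -0.59 ± 0.34 (SE).

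As a group, 9 of the 10 factors were higher in CS7KO than in CRE hearts by fitted log2 difference, as were 8298 of all 16002 genes tested. The median log2 difference was 0.88 for the factors and 0.03 over all genes tested. None of the 10 passed edgeR's quasi-likelihood test at an adjusted p of 0.05 over 16002 genes, a threshold that 0.0375% of all genes passed (0.0187% higher and 0.0187% lower). At an unadjusted p under 0.05, 6 factors (Gata4, Tbx5, Tbx20, Hand2, Srf and Myocd) were higher and none was lower, where 12.6% of all genes passed in either direction and 6.12% were higher. DESeq2 called Srf and Myocd, both higher, where it called 4.10% in either direction and 2.02% higher of the 12279 genes to which it gave an adjusted p, and limma-voom called 0 of the members and 0.0312% of all genes. Of the 1016 tested genes that the deposited table assigns to a transcription factor family, 432 were higher, with a median of -0.11. The 2 female CRE hearts weighed on the members' summary: without CRE 3 and CRE 5, 8 of 10 members were higher, with a median of 0.31, and 1 had an unadjusted p under 0.05. That fit kept the term for labelled sex. With no female CRE heart left, its genotype difference, here and below, compared male CS7KO with male CRE hearts only. In that fit, with fewer samples, the median over all 17718 genes tested was 0.16, and 4.25% of them had an unadjusted p under 0.05.

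**Figure D1:**
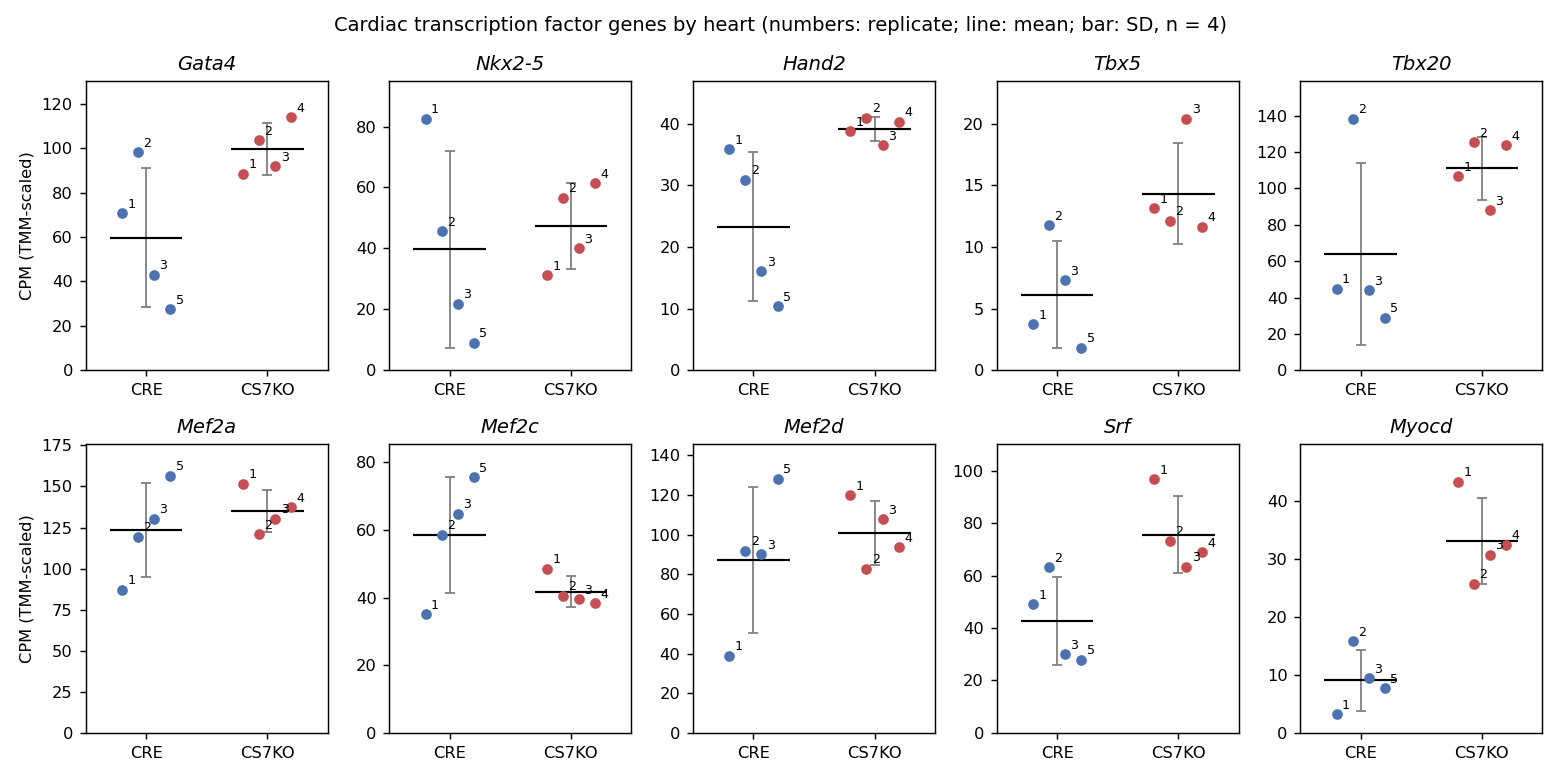
Level of each of the 10 factors in CPM in every library, 4 CRE and 4 CS7KO hearts, with points for libraries and bars for the mean and SD. Hand2, Srf and Myocd had groups that did not overlap, while the other 7 overlapped.

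**Figure D2:**
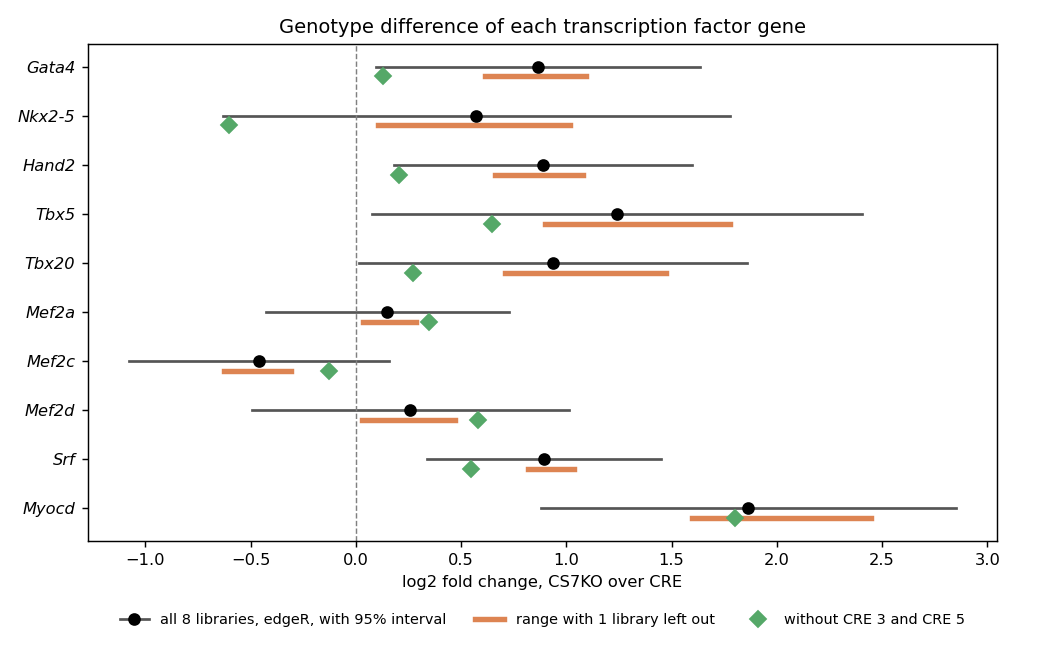
Log2 difference of CS7KO over CRE for each factor from edgeR, with its 95% confidence interval. Intervals of Gata4, Tbx5, Tbx20, Hand2, Srf and Myocd lay above 0, before any adjustment over genes, and that of Mef2c reached from -1.08 to 0.16.

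Myocd encodes myocardin, the muscle-restricted coactivator of SRF. Levels in CRE hearts, here and below in the order 1, 2, 3 and 5, were 3.18, 15.9, 9.49 and 7.74 CPM, and the CS7KO hearts, in the order 1 to 4, had 43.4, 25.8, 30.8 and 32.5 CPM. Every CS7KO heart lay above every CRE heart, as for Srf and Hand2. Such a lack of overlap was found for 10.3% of all genes, 6.24% higher and 4.11% lower in CS7KO hearts. The means were 9.07 ± 5.25 (SD, n = 4) and 33.1 ± 7.43 CPM (SD, n = 4), a fitted difference of 3.64-fold or 1.86 ± 0.44 on the log2 scale (SE). The adjusted p was 0.274 by edgeR, 0.00553 by DESeq2 and 0.178 by limma-voom. These values rested on 64 to 393 counts in CRE libraries and 581 to 1435 in CS7KO libraries. The difference was 1.80 without CRE 3 and CRE 5, and between 1.60 and 2.45 with any 1 library left out. The gene is given at chr11:65067387-65160815 on the minus strand in the deposited coordinates, ENSMUSG00000020542.

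Srf encodes serum response factor, which binds the CArG box and turns on contractile and growth-induced genes. It had 49.0, 63.3, 29.9 and 27.9 CPM in CRE hearts and 96.7, 73.3, 63.4 and 68.9 CPM in CS7KO hearts. The groups did not overlap, but CRE 2 and CS7KO 3 lay side by side. The difference was 0.89 ± 0.25 on the log2 scale (SE; 95% interval 0.34 to 1.45), with an adjusted p of 0.291 by edgeR and 0.0294 by DESeq2. Without CRE 3 and CRE 5 it was 0.55. The fitted difference was thus larger for Myocd than for Srf, and the ratio of Myocd to Srf level, both per kilobase, was 0.0292, 0.113, 0.143 and 0.125 in CRE hearts and 0.202, 0.158, 0.219 and 0.212 in CS7KO hearts. That ratio was higher in every CS7KO heart than in any CRE heart, with means of 0.102 ± 0.0503 and 0.198 ± 0.0272 (SD, n = 4 each). CRE 1, where long genes were low, had the lowest ratio, and its part in the result was not tested. Srf is given at chr17:46859255-46867101, minus strand, ENSMUSG00000015605.

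Hand2 encodes a helix-loop-helix factor best known from the embryonic right ventricle and from sympathetic neurons. Its levels were 35.9, 30.9, 16 and 10.4 CPM in CRE hearts and 38.8, 41.0, 36.6 and 40.3 CPM in CS7KO hearts. CS7KO hearts were close together and above all CRE hearts, of which the female CRE 3 and CRE 5 were low and the male CRE 1 was just below the CS7KO range. The difference was 0.89 ± 0.32 on the log2 scale (SE; edgeR adjusted p = 0.313, DESeq2 adjusted p = 0.112). It was 0.20 without CRE 3 and CRE 5. Hand2os1, a long noncoding RNA on the opposite strand that overlaps Hand2, held 12897 counts over all libraries against 6424 for Hand2. As strand use in counting is not given, reads of this overlap cannot be told apart. Hand2os1 had 70.3, 50.9, 76.7 and 7.26 CPM in CRE hearts and between 65.9 and 79.9 CPM in CS7KO hearts, so that it stood apart in CRE 5 alone, whereas Hand2 was low in CRE 3 as well. Hand2 is given at chr8:57774018-57777668, plus strand, ENSMUSG00000038193.

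Gata4 encodes the zinc finger factor that regulates natriuretic peptide and contractile genes and is a known mediator of hypertrophy. It had 70.6, 98.1, 42.9 and 27.3 CPM in CRE hearts and 88.5, 104, 91.8 and 114 CPM in CS7KO hearts. The groups overlapped through CRE 2. The difference was 0.87 ± 0.34 on the log2 scale (SE; edgeR adjusted p = 0.354, DESeq2 adjusted p = 0.139), and 0.13 without CRE 3 and CRE 5. Gata4 is given at chr14:63436371-63509141, minus strand, ENSMUSG00000021944.

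Nkx2-5 encodes the homeodomain factor that partners GATA4 on many cardiac promoters. Its levels were 82.6, 45.7, 21.8 and 9.07 CPM in CRE hearts and 31.2, 56.6, 40.05 and 61.4 CPM in CS7KO hearts. CRE 1 was above and CRE 3 and CRE 5 were below every CS7KO heart. The difference was 0.57 ± 0.54 on the log2 scale (SE; edgeR adjusted p = 0.711). It turned to -0.60 without CRE 3 and CRE 5 and lay between 0.11 and 1.02 with any 1 library left out. With a length of 1719 bases Nkx2-5 belonged to the shortest 20% of genes, which ran high in CRE 1. It is given at chr17:27057638-27063983, minus strand, ENSMUSG00000015579.

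Tbx5 encodes a T-box activator needed for atrial and conduction-system genes, and Tbx20 a T-box factor that maintains adult cardiomyocyte function. Tbx5 had 3.71, 11.7, 7.29 and 1.81 CPM in CRE hearts and 13.1, 12.1, 20.4 and 11.6 CPM in CS7KO hearts. Only CRE 2 reached the CS7KO range, by a margin of less than 1 CPM. The difference was 1.24 ± 0.52 on the log2 scale (SE; edgeR adjusted p = 0.370, DESeq2 adjusted p = 0.157), 0.65 without CRE 3 and CRE 5, and 0.63 without CRE 1 and CRE 5. Tbx20 had 44.9, 138, 43.9 and 28.9 CPM in CRE hearts and 107, 125, 87.9 and 124 CPM in CS7KO hearts. The highest and the 3 lowest values of Tbx20 were all CRE hearts. Its difference was 0.94 ± 0.41 on the log2 scale (SE; edgeR adjusted p = 0.388), 1.48 without CRE 2 and 0.27 without CRE 3 and CRE 5. Short stretches of Tbx20, of at most 171 bases, matched transcripts of 218 other genes at 90% identity or more, so that part of its reads may have been shared. Tbx5 is given at chr5:119970733-120023284, plus strand, ENSMUSG00000018263, and Tbx20 at chr9:24629434-24685599, minus strand, ENSMUSG00000031965.

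The 3 MEF2 genes had the smallest differences above 0 and the 1 difference below 0 among the 10 factors. MEF2 proteins carry calcium and stress signals to muscle genes and are held inactive by class II histone deacetylases. Mef2a had 87.2, 119, 130 and 157 CPM in CRE hearts and 152, 121, 130 and 137 CPM in CS7KO hearts, with a log2 difference of 0.15 ± 0.26 (SE; 95% interval -0.43 to 0.73). Mef2d had 39.0, 91.8, 90.2 and 128 CPM in CRE hearts and 120, 82.8, 108 and 93.7 CPM in CS7KO hearts, with a log2 difference of 0.26 ± 0.34 (SE; 95% interval -0.50 to 1.01). For both genes CRE 5 was the highest heart of all and CRE 1 the lowest, and the CS7KO hearts lay between them. CRE 5, the library with the lowest level of Gata4, Nkx2-5, Tbx5, Tbx20, Hand2 and Srf, was thus the highest for all 3 MEF2 genes. Mef2a shared 302 bases with the overlapping gene Lysmd4, and Mef2d 531 bases with the overlapping 1700113A16Rik, at 100% identity. Lysmd4 held 1948 counts against 24880 for Mef2a, and 1700113A16Rik held 47 against 18239 for Mef2d. Part of their reads may have been shared.

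Mef2c, which is also active in endothelial cells, was the 1 member with a lower mean in CS7KO hearts. It had 35.0, 58.6, 64.7 and 75.6 CPM in CRE hearts and 48.5, 40.5, 39.5 and 38.4 CPM in CS7KO hearts. CRE 2, CRE 3 and CRE 5 were above and CRE 1 was below all CS7KO hearts. The log2 difference was -0.46 ± 0.28 (SE; 95% interval -1.08 to 0.16; edgeR adjusted p = 0.527), -0.63 without CRE 1 and -0.13 without CRE 3 and CRE 5. All 3 MEF2 genes have edgeR adjusted p-values of at least 0.527. Mef2a, Mef2c and Mef2d are given at chr7:66880911-67022606 (minus strand, ENSMUSG00000030557), chr13:83652153-83815199 (plus strand, ENSMUSG00000005583) and chr3:88049679-88079393 (plus strand, ENSMUSG00000001419).

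Taken per kilobase, the share of Mef2c in the sum of the 3 MEF2 genes separated the genotypes. It was 15.2%, 13.7%, 14.7% and 13.0% in CRE hearts and 9.24%, 10.5%, 8.55% and 8.90% in CS7KO hearts, with means of 14.2% ± 0.962 and 9.29% ± 0.835 (SD, n = 4 each). CRE 1 lay with the other CRE hearts in this share, although its Mef2c level in CPM was the lowest of all. The shares of Mef2a, 28.9% to 40.5% in CRE and 30.2% to 34.1% in CS7KO hearts, and of Mef2d, 44.4% to 58.0% and 56.1% to 61.2%, overlapped. The ratio of Mef2c to Mef2a was 0.437 ± 0.0414 in CRE and 0.289 ± 0.0223 in CS7KO hearts (SD, n = 4 each), without overlap. It draws on the same levels as the Mef2c share and is not a separate result. Of the 5 ratios between factors that were computed, Myocd over Srf and Mef2c over Mef2a separated the genotypes, while Gata4 over Mef2a, Nkx2-5 over Gata4 and Tbx5 over Tbx20 overlapped. Gata4 over Mef2a was 3.05, 3.09, 1.24 and 0.657 in CRE hearts and 2.19, 3.22, 2.65 and 3.12 in CS7KO hearts. The 5 pairs were picked, other pairs of factors were not computed, and how often ratios of other genes separate the genotypes was not counted. Shares and ratios are descriptions, with no test. Of the 9 endothelial markers 9 were lower in CS7KO hearts, 7 of them at an unadjusted p under 0.05, where 12.6% of all genes were. Their median log2 difference was -1.09. Without CRE 3 and CRE 5 it was -0.47, and 1 of the 9 was higher. The part of these markers in the Mef2c share was not tested.

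**Figure D3:**
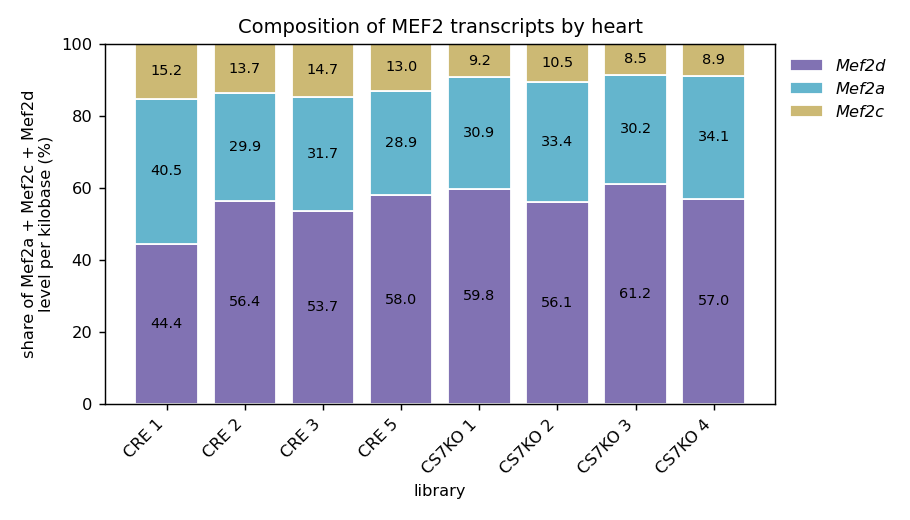
Share in percent of Mef2a, Mef2c and Mef2d in their sum, per kilobase of gene length, in each CRE and CS7KO library. The Mef2c share lay between 13.0% and 15.2% in CRE hearts and between 8.55% and 10.5% in CS7KO hearts.

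Whole-heart RNA cannot tell fewer cardiomyocytes from less of a transcript per cardiomyocyte. Of the 10 ventricular cardiomyocyte markers 8 were higher in CS7KO hearts, with a median of 0.67, and their sum was lowest in CRE 3 and CRE 5. Most of these markers are themselves known targets of the factors and return in the target list below. Set against the sum of the markers, Myocd still separated the genotypes, at 0.0638, 0.446, 0.332 and 0.353 CPM per 1000 CPM of markers in CRE hearts and 0.977, 0.602, 0.719 and 0.631 in CS7KO hearts. The CS7KO mean was 2.45 times the CRE mean, which CRE 1, the lowest heart at 0.0638, pulled down. How often other genes separate the genotypes on this scale was not counted. The other 9 factors overlapped between genotypes on it, with CS7KO means from 0.460 times (Mef2c) to 1.73 times (Tbx5) the CRE mean. For Gata4, Hand2 and Srf the ratio was 1.27, 1.32 and 1.32, and for Nkx2-5 it was 1.01. Without CRE 3 and CRE 5, 4 of 10 ventricular markers were higher, with a median of -0.10.

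**Figure D4:**
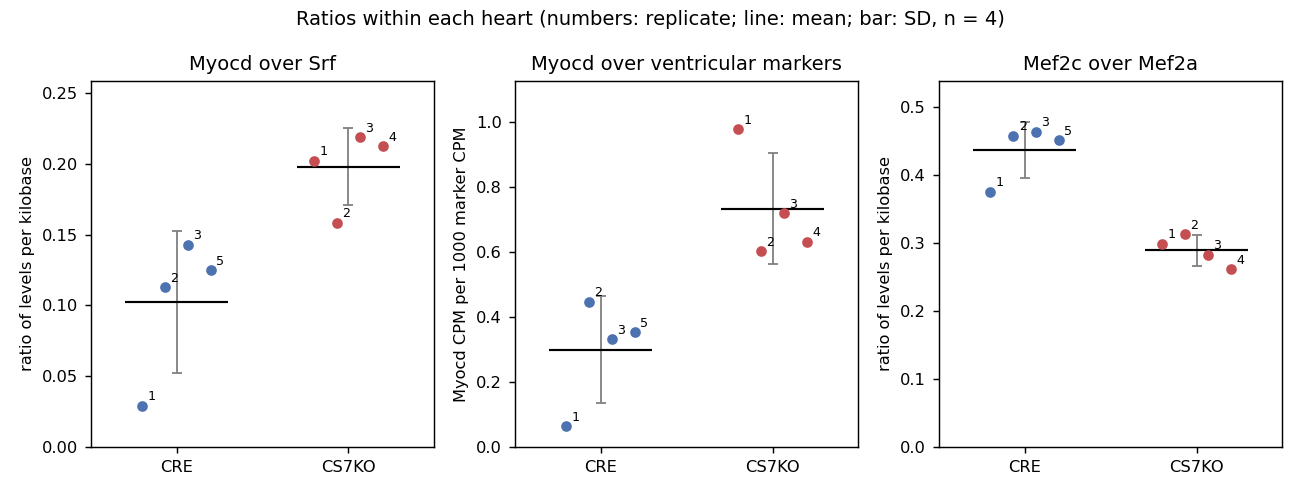
Myocd over Srf and Mef2c over Mef2a, as ratios of levels per kilobase, and Myocd in CPM per 1000 CPM of ventricular markers, with points for the 4 CRE and 4 CS7KO libraries, a line for the mean and bars for the SD. Both Myocd ratios were higher and Mef2c over Mef2a was lower in all 4 CS7KO hearts than in any CRE heart.

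Compared per kilobase of gene length over all 8 libraries, Nkx2-5 had the highest mean level at 25.3 ± 13.6 CPM per kb (SD, n = 8). Srf followed with 20.4 ± 7.91, Gata4 with 20.4 ± 7.80, Mef2d with 15.7 ± 4.55, Hand2 with 13.3 ± 4.96 and Mef2a with 8.81 ± 1.47 CPM per kb. Tbx20 had 7.29 ± 3.57, Myocd 3.28 ± 2.21, Mef2c 3.19 ± 0.934 and Tbx5 2.19 ± 1.26 CPM per kb. The ranges of all 9 pairs of neighbours in this order overlapped, and Tbx20 over Myocd was the 1 neighbouring pair with the same order in all 8 libraries. Among 1017 transcription factor genes, Nkx2-5 ranked 19th, Srf 29th and Gata4 30th by this level, and Tbx5 ranked 444th. Tbx20 had the highest level of the 9 tested T-box genes and Gata4 of the 11 tested genes of the GATA zinc finger class. In CRE hearts Myocd had 1.41 and Mef2c 3.72 CPM per kb, and in CS7KO hearts Myocd had 5.15 and Mef2c 2.66, so the order of these 2 means differed between genotypes. The order rests on the division by length: by CPM alone Mef2a ranked 1st, Mef2d 2nd, Tbx20 3rd and Nkx2-5 7th, and with total counts as the library size Gata4 and Srf changed places.

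**Figure D5:**
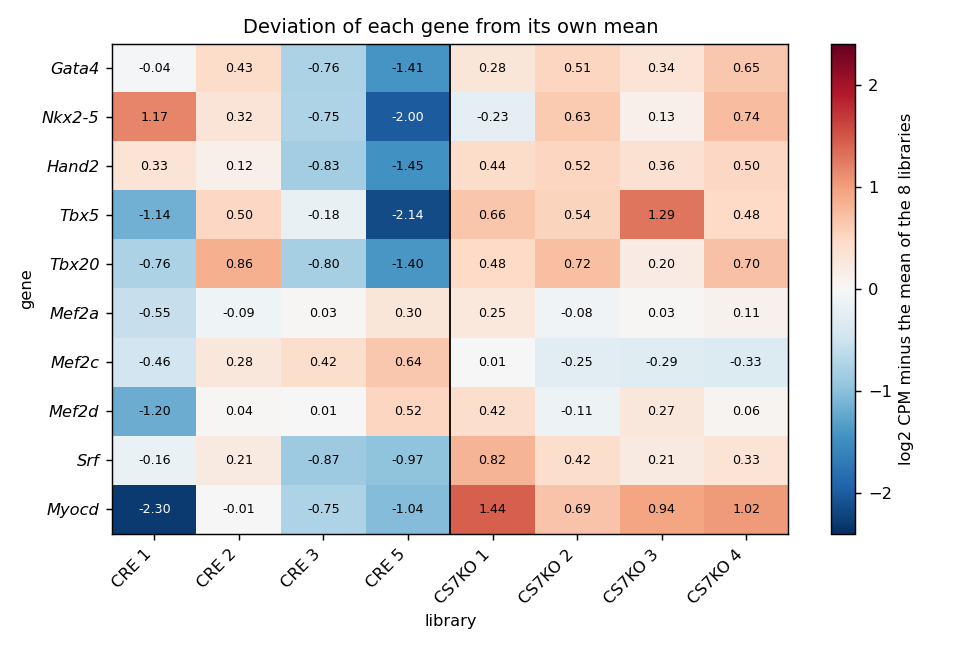
Level of each factor in each library as log2 CPM minus its mean over the 8 libraries. CRE 3 and CRE 5 were low for most factors other than the MEF2 genes. CRE 1 lay below the mean for all factors but Nkx2-5 (1.17) and Hand2 (0.33). It was lowest for Myocd (-2.30), followed by Mef2d (-1.20), Tbx5 (-1.14) and Tbx20 (-0.76).

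The 20 related cardiac factors include relatives of the members and other regulators of heart muscle genes. Of these, 15 were tested, and the others had too few counts. Of the 15, 7 were higher and 8 lower around a median of -0.11. EdgeR called 0, with 4 at an unadjusted p under 0.05, DESeq2 called 1 and limma-voom 0. Over all genes, beside this list and those below, 12.6% had an unadjusted edgeR p under 0.05 and DESeq2 called 4.10%. The gene DESeq2 called was Klf15, a Krüppel-like repressor of cardiac hypertrophy that is known to inhibit myocardin and GATA4. It had 23.0, 19.8, 18.1 and 12 CPM in CRE hearts and 60.4, 43.1, 62.6 and 46.2 CPM in CS7KO hearts, a difference of 1.56 ± 0.27 on the log2 scale (SE; edgeR adjusted p = 0.156). Tead1, a Hippo pathway factor, and Gata6, the other GATA factor of adult cardiomyocytes, had log2 differences of 0.95 ± 0.33 and 0.60 ± 0.26, and the Notch target Hey1 had -1.30 ± 0.50 (SE; edgeR adjusted p between 0.311 and 0.375). Hey1 had 76.9 CPM in CRE 5, against 13.0 to 15.7 CPM in the other CRE and 8.23 to 15.4 CPM in the CS7KO hearts, and its difference was -0.52 without CRE 5. Without CRE 3 and CRE 5, 8 of the 15 related factors were higher and their median was 0.28, beside 0.31 for the members. In that fit Klf15 had a difference of 1.23, Tead1 0.58 and Gata6 0.35.

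Among 19 cofactors and regulators, such as histone deacetylases, myocardin-related coactivators and chromatin proteins, 12 were higher and 7 lower, and the median was 0.13. EdgeR called 0, with 3 (15.8%) at an unadjusted p under 0.05, near the 12.6% of all genes. DESeq2 called 1 and limma-voom 0. That gene was Trim63, which encodes the muscle ubiquitin ligase MuRF1 and had 54.0 ± 26.0 CPM in CRE and 181 ± 62.7 CPM in CS7KO hearts (SD, n = 4 each), with a log2 difference of 1.86 ± 0.41 (SE; edgeR adjusted p = 0.262). Mrtfa, a relative of myocardin that senses actin, had a log2 difference of -0.63 ± 0.28 with groups that did not overlap, opposite in sign to Myocd. Hdac7, a class II histone deacetylase, had -0.85 ± 0.35, and Smyd1, a muscle methyltransferase, had 0.70 ± 0.32 (SE; edgeR adjusted p 0.367 and 0.396). Without CRE 3 and CRE 5 the values were 1.06 for Trim63, -0.56 for Mrtfa, -0.22 for Hdac7 and 0.23 for Smyd1.

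Of 26 cardiomyocyte genes known as targets of these factors, 20 were higher and 6 lower, and the median was 0.75. Myh6, Tnnt2, Tnni3, Actc1, Myl2, Pln and Ryr2 are also among the ventricular markers, and Nppa and Myl7 among the atrial markers. The counts of these lists are thus not separate results. EdgeR called 0, with 9 at an unadjusted p under 0.05, limma-voom called 0, and DESeq2 called 9, of which 8 were higher and 1 was lower. Without CRE 3 and CRE 5, 12 of 26 were higher, with a median of -0.08. Myh7, the slow myosin heavy chain induced in loaded mouse hearts, had a log2 difference of 2.15 ± 0.65, Xirp1, an actin-binding intercalated disc protein, 1.72 ± 0.49, and the sodium-calcium exchanger gene Slc8a1 1.28 ± 0.38 (SE; edgeR adjusted p between 0.291 and 0.292). Gja5, which encodes connexin 40 of atrial, conduction-system and arterial endothelial cells and is a known TBX5 target, had 14.8 ± 2.93 CPM in CRE and 6.68 ± 1.90 CPM in CS7KO hearts (SD, n = 4 each). Its log2 difference of -1.15 ± 0.32 (SE; edgeR adjusted p = 0.291) was opposite in sign to that of Tbx5. Without CRE 3 and CRE 5, Slc8a1 had a difference of 0.64, Myh7 1.72, Xirp1 1.76 and Gja5 -1.26.

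The 15 serum response and smooth muscle genes, known targets of SRF, had a median of -0.82, with 3 members of the list higher and 12 lower. EdgeR called 0, with 5 at an unadjusted p under 0.05, limma-voom called 0, and DESeq2 called 3, of which 1 was higher and 2 were lower. Egr1, Ier2 and Junb, early response genes, had log2 differences of -2.24 ± 0.64, -1.78 ± 0.42 and -1.18 ± 0.37, and Vcl, which encodes the adhesion protein vinculin, had 2.17 ± 0.68 (SE; edgeR adjusted p between 0.274 and 0.295). The count depended on CRE 3 and CRE 5: without them 7 of the 15 genes were higher and the median was -0.01, Egr1 had -0.99, Ier2 -1.09, Junb -0.48 and Vcl 2.01. The median was -0.34 without CRE 5 alone and -0.30 without CS7KO 4. Of 9 smooth muscle and pericyte markers, some of them in the same list, 9 were lower, with a median of -0.30. Of those 9, 5 were higher without CRE 3 and CRE 5, and the median was 0.11.

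The genotype difference was compared between labelled sexes in a fit with 2 hearts in each of 4 groups. For Nkx2-5 it was -0.55 ± 0.51 in males and 1.70 ± 0.53 in females, a gap of 2.25 ± 0.73 on the log2 scale (SE; edgeR adjusted p = 0.667). Gata4 had 0.19 ± 0.36 in males and 1.55 ± 0.37 in females, and Hand2 had 0.26 in males and 1.53 in females, with gaps of 1.36 ± 0.51 and 1.27 ± 0.48 (SE). These 3 genes had an unadjusted p under 0.05, as did 7.08% of all genes, and edgeR called 0 of 16002 genes, limma-voom 0 and DESeq2 44, none a member. Myocd had a difference of 1.86 in males and 1.87 in females, with a gap of 0.01 ± 0.87 (SE). The fit without CRE 3 and CRE 5 compared the same male hearts, so it is not a result separate from these male differences. The female CRE hearts were the 2 libraries with high mitochondrial shares and low ventricular marker sums, so sex and these properties cannot be told apart in the CRE group. For labelled sex itself, Srf had a log2 difference of -0.66 ± 0.25, female over male (SE; edgeR adjusted p = 0.823), the 1 member at an unadjusted p under 0.05, where 2.67% of all genes were. EdgeR, DESeq2 and limma-voom each called 0 genes for sex, with 427, 917 and 752 at an unadjusted p under 0.05.

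The median over the members of their deviation from each member's mean was -0.51, 0.24, -0.75 and -1.22 log2 units in CRE hearts, while CS7KO hearts had 0.43, 0.52, 0.24 and 0.49. The 5 protein-coding genes whose level followed this profile most closely over the 8 libraries, among 12392, were Rragd, Ube2z, Epm2a, Atpaf1 and Pdha1, with Pearson r from 0.989 to 0.994. Rragd encodes a GTPase of the mTORC1 pathway, Ube2z a ubiquitin-conjugating enzyme, Epm2a the glycogen phosphatase laforin, Atpaf1 an assembly factor of ATP synthase and Pdha1 a subunit of pyruvate dehydrogenase. The 8 points share the scaling of each library and the low CRE 3 and CRE 5. Over the 7 libraries without CRE 1 the closest 5 were Eif4e3, Smyd2, Cdh11, Btbd1 and C1d, with 0 genes in common.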

How the data were processed

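Polyadenylated RNA of 8 whole hearts was extracted with Trizol and sequenced with Illumina chemistry by a commercial service, per the labels' protocols. The authors deposited raw counts per gene, with no normalization, and gene lengths. The submitters' processing notes name TopHat2 2.0, Cufflinks 2.1.1 and HTSeq 0.6.1 without their roles, and mm10 and GRCm38.p6; use of strand and treatment of reads matching several genes are not given in the sources used here. As 1472 of 52073 matched genes (2.83%) had the coordinates of GENCODE M21, and 0 of the members did, gene coordinates are printed as deposited, with the build unsettled. The promoter windows follow GRCm38.p6 and do not line up with these gene coordinates. On chromosome 17 the Srf window ended at base 46556412, while the deposited Srf gene ended at 46867101. All 8 sample columns were used and 0 were left unused.

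Counts were tested with edgeR 4.0.16 (R 4.3.3): genes kept by filterByExpr on genotype (minimum count 10, total 15), TMM scaling, robust quasi-likelihood fit with terms for genotype and labelled sex, Benjamini-Hochberg adjustment over 16002 genes and a threshold of 0.05. DESeq2 1.42.0 and limma-voom (limma 3.58.1) were alternatives, with other scalings, filters, a replicate block and libraries left out. An offset for gene length was added after the data were seen. The edgeR step was tested on simulated data. CPM are TMM-scaled counts-per-million; levels per kilobase use the deposited gene length. Error ranges of log2 differences are standard errors. These errors and the intervals of log2 differences come from the quasi-likelihood fit, so they include variation between hearts. The upper limit for a gene with no counts covers counting error only. Overlaps in sequence were found with blastn 2.17.0.

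The members and gene lists were chosen with earlier results of these data known, so no p was adjusted over a list alone and no list was tested. Named genes are the members, Smad7, the up to 4 genes of each list with the smallest genotype p, and the 5 genes most like the members' median profile. Hand2os1, Lysmd4 and 1700113A16Rik were named for their overlap with a member. No 2 libraries of the same genotype agreed within sampling noise (lowest chi-square per degree of freedom 11.2).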

Additional observations from a re-analysis of the deposited data

Results flagged for a closer look

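Tbx20 in CRE 2, at 138 CPM, stood apart from the other 3 CRE hearts: its gap to the nearest of them was 0.854 of the range of the group. Chance alone sets apart about 1 in 20 groups by this measure, and 20 groups (10 factors in 2 genotypes) were looked at. Without CRE 2 the log2 difference of Tbx20 was 1.48 in place of 0.94, with an edgeR adjusted p of 0.104.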

How the results depend on the processing

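Over all genes, 6 passed edgeR's test. This count was 338 with no filter on low counts, 503 by DESeq2, 2 with the replicate block, 16 without CRE 1 and CRE 5, 3 without CRE 3 and CRE 5, 13 with the trend on gene length removed, and 3 to 14 with 1 library left out. The members called were 0 in the main test, 1 (Myocd) with no filter and 2 by DESeq2. With no filter, 1 related factor, 1 cofactor, 5 cardiomyocyte targets, 3 serum response genes, 48 genes for the interaction with sex and 7 for sex were called; by DESeq2 these were 1, 1, 9, 3, 44 and 0. The labels give hearts a number but no pairing or batch. Between same-numbered hearts the correlations of their deviations across genes were 0.042, -0.088 and 0.352. Between differently numbered hearts they lay from -0.221 to 0.166, so the pair numbered 3 was the most alike. Whether the numbers mark a pairing was not tested. The fit with the replicate block had no term for sex. Number 5 occurred only in CRE and number 4 only in CS7KO hearts. The genotype difference of that fit thus came from the hearts numbered 1 to 3, without CRE 5 and CS7KO 4. The sign of Nkx2-5 turned with the replicate block (-0.052) and without CRE 3 and CRE 5 (-0.60), and that of Mef2a with the length trend removed (-0.037); the cause was not tested. The other 8 members kept their sign in all 21 alternatives. The factors at an unadjusted p under 0.05, 6 in the main test, were 2 without CRE 5, 3 without CRE 3, 3 without CS7KO 3, 4 without CS7KO 4, 3 without the term for sex and 2 with the replicate block. The share of all genes, 12.6% in the main test, was 7.32%, 9.91%, 6.78%, 7.54%, 13.4% and 3.84% in these fits. The median of the serum response genes was -0.12 with the replicate block, against -0.82. With 1 library left out, log2 differences ranged from 0.61 to 1.09 for Gata4, 0.11 to 1.02 for Nkx2-5, 0.90 to 1.78 for Tbx5, 0.71 to 1.48 for Tbx20, 0.66 to 1.08 for Hand2, 0.82 to 1.04 for Srf, 1.60 to 2.45 for Myocd, 0.04 to 0.29 for Mef2a, 0.03 to 0.47 for Mef2d and -0.63 to -0.31 for Mef2c.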
